A study of Mus musculus with 6 samples.

Results

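The NF-κB subunits and their inhibitors were examined in epididymal white adipose tissue (eWAT) of mice with cancer-associated cachexia (CAC). The 10 genes Nfkb1, Nfkb2, Rela, Relb, Rel, Nfkbia, Nfkbib, Nfkbie, Nfkbiz and Tnfaip3 were picked by gene symbol out of 55039 genes in the deposited tables, and each symbol matched 1 gene. All 10 had enough reads to be tested, among 17296 genes tested in all. The CAC mice were male C57BL/6 mice that were given 5000000 LLC cells, a mouse lung carcinoma line, under the skin at 6 to 7 weeks of age, and the control (CONT) mice received PBS. The eWAT was taken 28 days later, and mRNA of 3 CAC and 3 CONT mice was sequenced with 1 library per mouse. The tissue was not sorted, so every value is an average over adipocytes, stromal, vascular and immune cells, and fewer cells of a type cannot be told apart from less RNA per cell.

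NF-κB is a family of transcription factors that act as pairs of subunits. In a resting cell the pairs are held in the cytoplasm by inhibitor proteins of the IκB family, and signals such as tumor necrosis factor, interleukin-1 or bacterial products lead to destruction of the inhibitor and entry of the pair into the nucleus. The canonical branch works mainly through RelA, c-Rel and the p50 product of Nfkb1, and the non-canonical branch through RelB and the p52 product of Nfkb2. Several inhibitors, IκBα and A20 among them, are made from genes that NF-κB itself switches on, which gives the pathway a negative feedback. In adipose tissue the pathway is known from adipocytes and from resident macrophages. Most of its control acts on proteins, which mRNA levels do not measure.

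The 250 bases upstream of the start site are shown for Nfkbia and Nfkbie, the inhibitor genes with the most positive and the most negative fold change among the 10. The sequences are from RefSeq (GRCm38.p6) and run 5′ to 3′ on the strand of the gene, with matches to the 10-base κB consensus on either strand in capitals. The Nfkbia stretch is chr12:55492648-55492897 on the minus strand, and the Nfkbie stretch is chr17:45555450-45555699 on the plus strand.
Nfkbia: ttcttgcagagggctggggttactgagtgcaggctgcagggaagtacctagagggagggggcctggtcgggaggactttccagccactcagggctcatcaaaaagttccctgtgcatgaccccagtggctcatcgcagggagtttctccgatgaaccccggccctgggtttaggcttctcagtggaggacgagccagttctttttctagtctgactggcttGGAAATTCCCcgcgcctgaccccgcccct
Nfkbie: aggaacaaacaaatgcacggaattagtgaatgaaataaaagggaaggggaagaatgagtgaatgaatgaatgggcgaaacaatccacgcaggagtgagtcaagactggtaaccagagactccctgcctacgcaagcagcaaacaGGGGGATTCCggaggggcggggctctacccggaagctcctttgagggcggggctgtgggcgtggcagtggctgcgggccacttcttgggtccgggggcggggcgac
The match lay 29 to 20 bases before the Nfkbia start and 106 to 97 bases before the Nfkbie start, the latter read from the opposite strand. Promoter entries were matched by symbol for 7 of the 10 genes (not Nfkb1, Relb and Nfkbiz), and 6 of them held at least 1 match. Those were Nfkb2, Rela, Rel, Nfkbia, Nfkbie and Tnfaip3, while the window of Nfkbib held none. Of all 27025 genes with such windows, 5062 (18.7%) held a match in at least 1 of them, and of all 32851 windows 5529 (16.8%) did. A match is a string of letters and says nothing of binding in eWAT, and the promoters of Nfkbia and Nfkbie both hold one although their fold changes had opposite signs.

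Among the 10 genes, mRNA of the inhibitor Nfkbia was higher in every CAC mouse than in every CONT mouse, with a fold change of 2.14. The inhibitor Nfkbie and the subunit Relb were lower in every CAC mouse, at 0.491 and 0.660 times the CONT level. The canonical subunits Rela, Rel and Nfkb1 had overlapping groups and intervals that included no change. No gene of the 10 reached an adjusted p under 0.05 in edgeR's quasi-likelihood test with Benjamini-Hochberg adjustment, and the share over all genes tested was 0.0%. At an unadjusted p under 0.05, 3 of the 10 were counted, against 13.3% of all genes. These were 1 of 10 higher in CAC, where 6.31% of all genes were, and 2 of 10 lower, where 6.95% were. The groups did not overlap for the same 3 genes, against 22.5% of all genes, with 1 gene above (11.8% of all genes) and 2 below (10.7%). With 3 mice against 3, an exact two-sided permutation test of a single gene cannot give a p below 0.1, so non-overlap was used only as a description. DESeq2 gave 1 of the 10 genes, Nfkbia, an adjusted p under 0.05, against 5.8% of the genes that had an adjusted p. The median log2 fold change was 0.13 over the 10 genes and -0.06 over all genes tested.

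**Figure D1:**
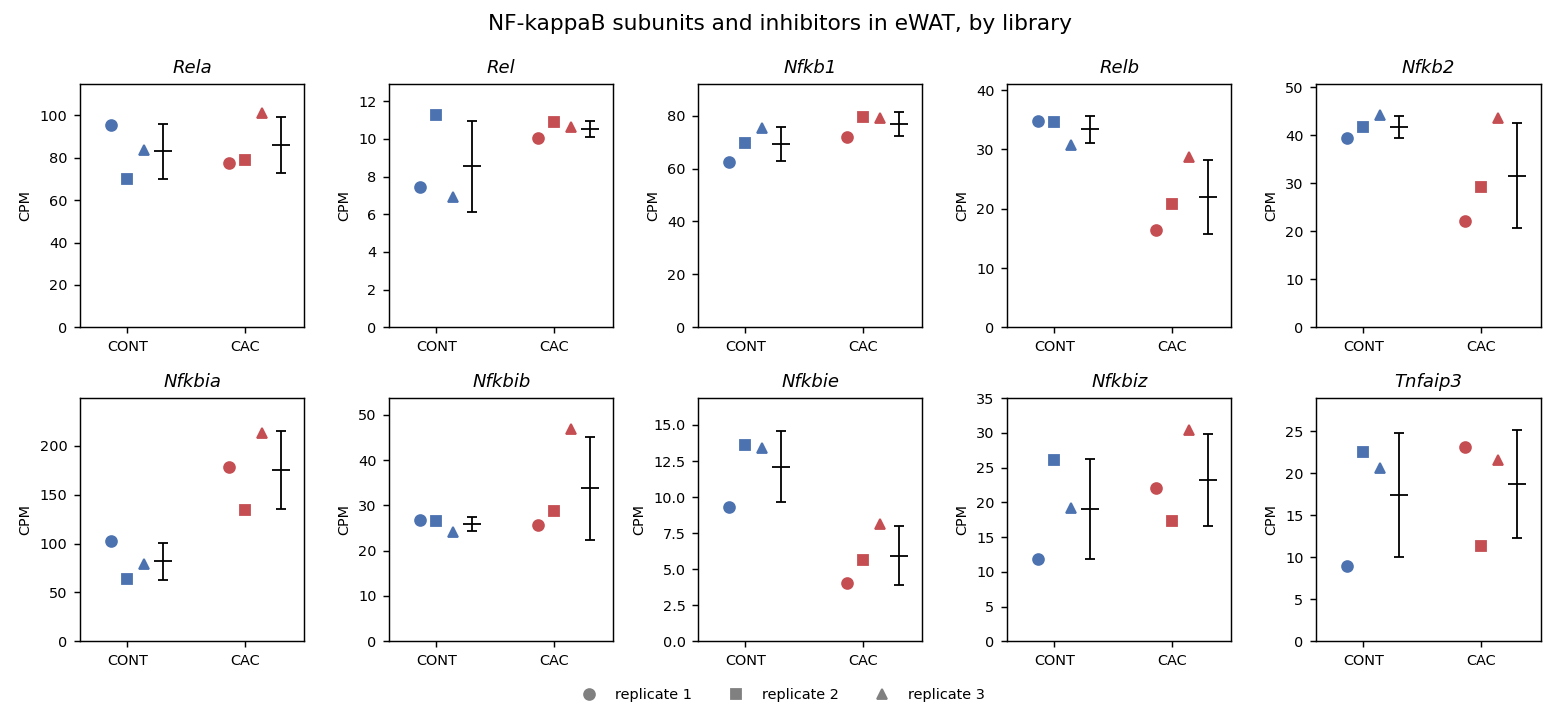
Normalised read counts (CPM, linear axis from 0) of the 10 genes in each library, with CONT in blue and CAC in red and the symbol giving the replicate number; the black bar is the group mean with its SD. Groups are apart for Nfkbia, with CAC above, and for Nfkbie and Relb, with CAC below.

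Depth and sample purity differed between libraries. Reads are given as CPM, reads per 1000000 after scaling of the library size. Reads assigned to genes ranged from 15713794 to 25926425 per library, and 1 CPM stood for 11.3 to 26.7 reads. CONT replicate 1 stood apart, with 30.2% of reads from mitochondrial genes against 3.89% to 5.04% in the other libraries. CONT replicate 3 held 10050 CPM of epididymis markers in sum, among them Gpx5 at 5310 CPM, against 202 CPM in CONT replicate 1 and at most 2.61 CPM in the other 4 libraries. For the 10 genes, values without each of these libraries are therefore given as well. Gene positions below are as deposited, on GRCm38. Summed adipocyte markers were at 18060 to 38530 CPM in CONT and 16440 to 35680 CPM in CAC, with Fabp4 the most abundant on average. The markers did not move together. Lep, the gene of leptin, was at 406 to 692 CPM in CONT and 507 CPM in CAC replicate 1, but at 3.96 and 0.412 CPM in CAC replicates 2 and 3. Pnpla2, which encodes adipose triglyceride lipase, was above all CONT libraries in every CAC library (log2 fold change 1.36; DESeq2, adjusted p = 5.31e-06).

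Rela (ENSMUSG00000024927, chr19:5637483-5648130, plus strand), which encodes the main transactivating subunit of the canonical branch, was measured at 95.7, 69.9 and 83.6 CPM in the CONT replicates 1 to 3 and at 77.8, 78.9 and 101 CPM in the CAC replicates 1 to 3. The groups lay over each other, with the highest value in CAC replicate 3 and the lowest in CONT replicate 2. The log2 fold change (CAC over CONT) was 0.05 with an SE of 0.20 and a 95% interval of -0.44 to 0.54 (edgeR, adjusted p = 0.942). It was 0.17 without CONT replicate 1 and 0.07 without CONT replicate 3, and took the other sign without CONT replicate 2 (-0.06) or CAC replicate 3 (-0.08).

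Nfkb1 (ENSMUSG00000028163, chr3:135584655-135691547, minus strand), the gene of p105 and its processed product p50, had 62.5, 69.8 and 75.3 CPM in CONT and 71.8, 79.6 and 79.2 CPM in CAC. CAC replicate 1 lay within the CONT range and the other CAC libraries above it. The log2 fold change was 0.15 with an SE of 0.16 and an interval of -0.24 to 0.54 (edgeR, adjusted p = 0.711). Without CONT replicate 1 that of Nfkb1 was 0.10, without CONT replicate 3 it was 0.23, and without CAC replicate 1 it was 0.25. Rel (ENSMUSG00000020275, chr11:23736847-23770970, minus strand), which encodes c-Rel, a subunit best known from lymphocytes and myeloid cells, was at 7.43, 11.3 and 6.90 CPM in CONT and 10.1, 10.9 and 10.6 CPM in CAC. CONT replicate 2 held the highest value of all libraries. The log2 fold change of Rel was 0.30 with an SE of 0.29 and an interval of -0.40 to 1.00 (edgeR, adjusted p = 0.678), and it was 0.23, 0.56 and 0.18 without CONT replicates 1, 2 and 3 in turn. The intervals of Rela and Nfkb1 leave out a doubling or a halving, and that of Rel reaches a doubling at its upper end.

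Relb (ENSMUSG00000002983, chr7:19606217-19629438, minus strand) encodes a subunit that pairs mainly with p52 and marks the non-canonical branch. It was at 34.8, 34.7 and 30.7 CPM in CONT and at 16.4, 20.9 and 28.8 CPM in CAC. Every CAC library lay below every CONT library, with CAC replicate 3 nearest to them. The group means were 33.4 ± 2.34 CPM in CONT and 22.0 ± 6.24 CPM in CAC (SD, n = 3 each). Its log2 fold change was -0.60 with an SE of 0.24 and an interval of -1.18 to -0.02 (edgeR, unadjusted p = 0.0455, adjusted p = 0.368). It was -0.56 without CONT replicate 1, -0.64 without CONT replicate 3 and -0.38 without CAC replicate 1. The unadjusted edgeR p of Relb was 0.05 or more in 5 of the 6 fits that left out 1 library, from 0.0719 to 0.159, and was 0.0110 without CAC replicate 3.

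Nfkb2 (ENSMUSG00000025225, chr19:46304737-46312090, plus strand), the gene of p100 and p52, the usual partner of RelB, was at 39.5, 41.8 and 44.2 CPM in CONT and at 22.1, 29.2 and 43.5 CPM in CAC. CAC replicates 1 and 2 lay below all CONT libraries, and CAC replicate 3 lay within the CONT range. On the log2 scale the fold change was -0.40 with an SE of 0.27 and an interval of -1.05 to 0.24 (edgeR, unadjusted p = 0.180, adjusted p = 0.536). Its size depended on CAC replicate 1, without which it was -0.15, and on CAC replicate 3, without which it was -0.70 (edgeR, unadjusted p = 0.0218, adjusted p = 0.589). Without CONT replicate 1 or 3 it was -0.43 or -0.35. In the GENCODE M21 annotation Nfkb2 shares 531 exon bases with AC114539.1 and 299 with Psd, both on the opposite strand. The deposited Nfkb2 model differs from that annotation, with a length of 3289 bases against 4584, and no count of AC114539.1 was used here, so these overlaps may not be those of the counting. A strand setting for the counting is not given in the sources used here, and reads shared with Psd cannot be told apart without it.

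Nfkbia (ENSMUSG00000021025, chr12:55489410-55492647, minus strand) encodes IκBα, the inhibitor that is destroyed and remade fastest after a signal. It is also known as a gene that glucocorticoids switch on. It was at 102, 64.2 and 79.4 CPM in CONT, from 1154, 1478 and 1772 reads. In CAC it was at 178, 134 and 213 CPM, from 4373, 3345 and 5701 reads. Every CAC library lay above every CONT library, and CONT replicate 1, the library with the high mitochondrial share, was the highest of its group. The means were 81.9 ± 19.0 CPM in CONT and 175 ± 39.9 CPM in CAC (SD, n = 3 each). edgeR gave a log2 fold change of 1.10 with an SE of 0.27 and an interval of 0.45 to 1.74 (unadjusted p = 0.00529, adjusted p = 0.242), and it ranked 378 by p. Without CONT replicate 1 the log2 fold change was 1.30, and without CONT replicate 3 it was 1.09. Across 6 fits that each left out 1 library it ran from 0.94 to 1.30, with an unadjusted edgeR p of at most 0.0220. DESeq2 gave 1.09 with an adjusted p of 0.0158. That DESeq2 call was lost without CONT replicate 2 (adjusted p = 0.122), CONT replicate 3 (0.0737), CAC replicate 1 (0.0506) or CAC replicate 3 (0.135).

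Nfkbib (ENSMUSG00000030595, chr7:28758251-28767512, minus strand) encodes IκBβ, an inhibitor that is degraded more slowly. It was at 26.8, 26.6 and 24.1 CPM in CONT and at 25.7, 28.7 and 46.8 CPM in CAC. The groups overlapped, and CAC replicate 3 stood above all other libraries. Its log2 fold change was 0.39 with an SE of 0.26 and an interval of -0.24 to 1.01 (edgeR, adjusted p = 0.543). It was 0.09 without CAC replicate 3 and 0.59 without CAC replicate 1, and 0.43 or 0.35 without CONT replicate 1 or 3. Nfkbib shares 42 exon bases with Sirt2 and 314 with Ccer2, both on the opposite strand, and the reads of such stretches cannot be told apart without strand.

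Nfkbie (ENSMUSG00000023947, chr17:45555703-45563169, plus strand) encodes IκBε, an inhibitor known from B cells and other blood cells. It was at 9.29, 13.6 and 13.4 CPM in CONT, from 105, 314 and 299 reads, and at 4.07, 5.60 and 8.16 CPM in CAC, from 100, 140 and 218 reads. Every CAC library lay below every CONT library, with 9.29 CPM in CONT replicate 1 and 8.16 CPM in CAC replicate 3 as the nearest values. The means were 12.1 ± 2.45 CPM in CONT and 5.95 ± 2.07 CPM in CAC (SD, n = 3 each), the latter the lowest mean of the 10 genes. edgeR gave a log2 fold change of -1.03 with an SE of 0.36 and an interval of -1.88 to -0.17 (unadjusted p = 0.0257, adjusted p = 0.322). It was -1.17 without CONT replicate 1 and -0.94 without CONT replicate 3. The unadjusted edgeR p of Nfkbie was over 0.05, from 0.0807 to 0.0850, without CONT replicate 2, CONT replicate 3, CAC replicate 1 or CAC replicate 2. DESeq2 gave -1.02 with an adjusted p of 0.0935, which was 0.0176 without CONT replicate 1 and 0.0233 without CAC replicate 3. That DESeq2 value rose to 0.350 without CONT replicate 2 and 0.298 without CONT replicate 3. Without CAC replicate 1 or 2 it rose to 0.202 or 0.342.

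Nfkbiz (ENSMUSG00000035356, chr16:55811375-55838899, minus strand) encodes IκBζ, a nuclear member of the IκB family that acts on a set of inflammatory genes. It was at 11.9, 26.1 and 19.2 CPM in CONT and at 22.1, 17.3 and 30.4 CPM in CAC, with overlapping groups. On the log2 scale the fold change was 0.29 with an SE of 0.35 and an interval of -0.56 to 1.14 (edgeR, adjusted p = 0.754), and it was 0.06, 0.58 and 0.30 without CONT replicates 1, 2 and 3 in turn, 0.47 without CAC replicate 2 and 0.06 without CAC replicate 3. Tnfaip3 (ENSMUSG00000019850, chr10:19000910-19015657, minus strand) encodes A20, a ubiquitin-editing enzyme that shuts off signals upstream of the IκB kinase. It was at 8.93, 22.6 and 20.7 CPM in CONT and at 23.2, 11.4 and 21.6 CPM in CAC. The lowest library, CONT replicate 1, and the next lowest, CAC replicate 2, came from different groups. The log2 fold change of Tnfaip3 was 0.10 with an SE of 0.43 and an interval of -0.93 to 1.14 (edgeR, adjusted p = 0.942), and it was -0.19 without CONT replicate 1 and 0.26 without CONT replicate 3. The intervals of Nfkbiz and Tnfaip3 reach past a doubling, so a change of that size in either gene could not be told from none in these libraries.

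**Figure D2:**
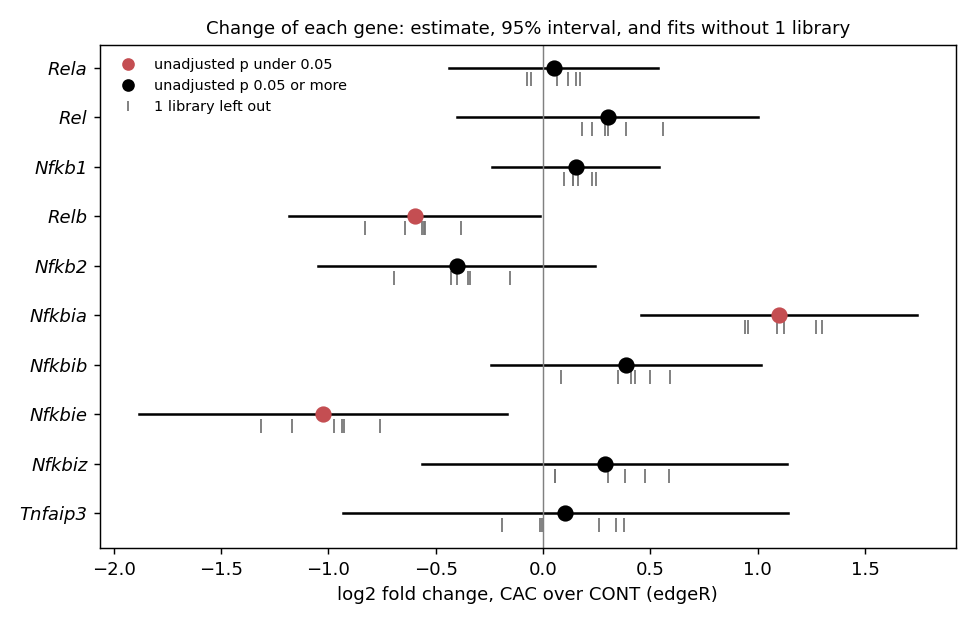
Log2 fold change of CAC over CONT for each gene from edgeR (points), with the 95% interval (lines) and the 6 values obtained when 1 library was left out (grey ticks). Points in red (Relb, Nfkbia and Nfkbie) had an unadjusted p under 0.05; the ticks of Rela and Tnfaip3 lie on both sides of 0.

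Levels of different genes were compared on the FPKM scale, which divides by gene length. In CONT the order of mean FPKM was Nfkbia (41.3), Rela (24.8), Nfkb2 (10.3), Nfkbib (9.66), Relb (6.96), Nfkb1 (4.65), Nfkbie (3.22), Nfkbiz (3.07), Tnfaip3 (1.95) and Rel (0.927). Neighbours with overlapping library values were Nfkb2 with Nfkbib, and each neighbouring pair from Nfkbie to Rel. In CAC the order of mean FPKM was Nfkbia (89.6), Rela (26.0), Nfkbib (12.8), Nfkb2 (7.91), Nfkb1 (5.25), Relb (4.66), Nfkbiz (3.82), Tnfaip3 (2.14), Nfkbie (1.61) and Rel (1.16). There the library values overlapped for Nfkbib with Nfkb2, from Nfkb1 to Nfkbiz, and from Tnfaip3 to Rel. Nfkbia and Rela held the first places in both groups, apart from each other and from all others. Nfkbie was in 7th place in CONT and in 9th in CAC. The place of Nfkb1 depended on length, since the deposited length of 12061 bases joins all annotated exons while its coding transcript has 4117. With the coding transcript's length for each gene, a choice made after the values were seen, Nfkb1 took place 3 in CONT at 13.6 FPKM.

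Ratios within a library compare 2 genes without a scaling between libraries. The FPKM ratio of Nfkbia to Rela was 1.80, 1.55 and 1.60 in CONT and 3.86, 2.86 and 3.56 in CAC, with no overlap. Nfkbia mRNA thus exceeded that of the subunit its product binds in every library, and by more in CAC. The ratio of Nfkbia to Nfkbie was 20.8, 8.90 and 11.2 in CONT and 82.7, 45.2 and 49.5 in CAC. Nfkbia made up 80.5%, 70.4% and 76.1% of the summed FPKM of Nfkbia, Nfkbib and Nfkbie in CONT, and 89.3%, 84.6% and 84.5% in CAC. In the non-canonical branch, the ratio of Relb to Rela was 0.254, 0.346 and 0.257 in CONT and 0.148, 0.185 and 0.199 in CAC. Coding transcript lengths gave 0.447, 0.609 and 0.451 in CONT and 0.260, 0.325 and 0.350 in CAC, also with no overlap. The ratio of Nfkb2 to Nfkb1 was 2.32, 2.19 and 2.15 in CONT and 1.13, 1.35 and 2.02 in CAC, so these groups did not overlap although those of Nfkb2 and Nfkb1 alone did. With the lengths of the coding transcripts this ratio was 0.829, 0.784 and 0.769 in CONT and 0.403, 0.481 and 0.720 in CAC, below 1 in every library, so which of these genes has more mRNA depends on the length used, while the order of the libraries does not. The ratios were computed from the same libraries as the single-gene values and are no further evidence for them.

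**Figure D3:**
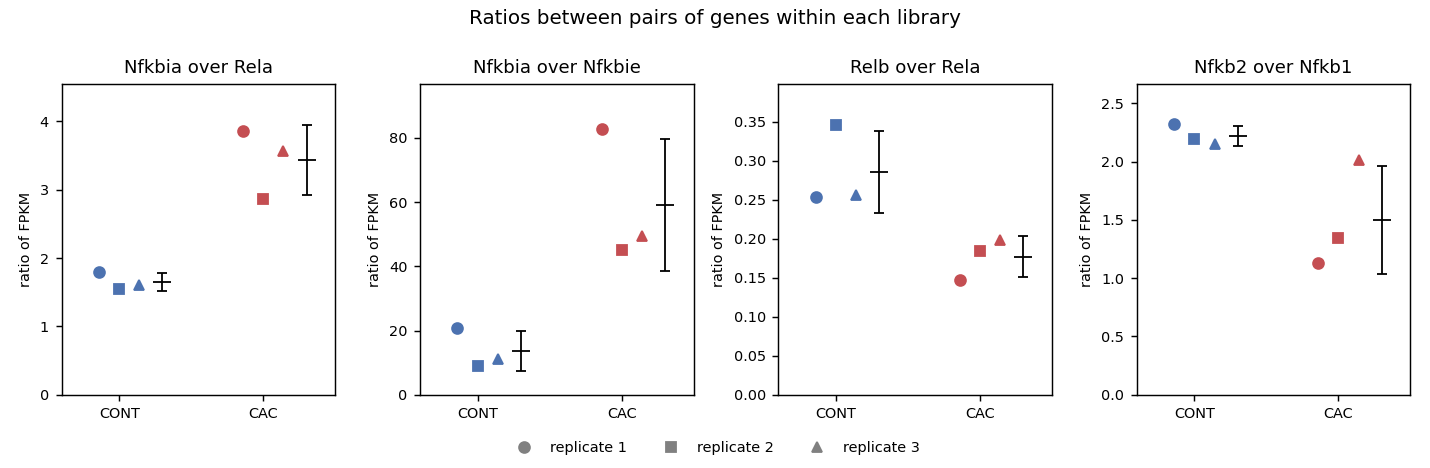
Ratios of FPKM between pairs of genes within each library (linear axes from 0), with symbols for the replicate number and a black bar for the group mean and SD. The CAC values lie above all CONT values for Nfkbia over Rela and Nfkbia over Nfkbie, and below them for Relb over Rela and Nfkb2 over Nfkb1.

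Over the 6 libraries, the log2 CPM of Nfkb2, Relb and Nfkbie ran together, with a Pearson r of 0.93 for Nfkb2 with Relb, 0.92 for Relb with Nfkbie and 0.91 for Nfkb2 with Nfkbie. CAC replicate 1 was the lowest and CAC replicate 3 the highest CAC library for all 3 of these genes. Nfkbiz and Tnfaip3 had an r of 0.87, and Nfkbia had an r of -0.77 with Nfkbie and -0.62 with Relb. These coefficients describe 6 points that share the group difference and the scaling. Among 15558 genes with a mean of at least 1 CPM, the 5 whose log2 CPM ran most like that of Nfkbia were Scp2-ps2, Ell2, Pex13, Tmem70 and Slc25a30 (r of 0.99 each). For Nfkbie they were Ptgds, Insig1, Nxnl2, Kif3a and Adap1 (r from 0.98 to 0.99). Insig1, which encodes a sterol-regulated protein of the endoplasmic reticulum, was at 154 CPM in CONT and 66.2 CPM in CAC on average.

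The wider pathway was covered by 5 lists of genes, of which 90 were tested. Of these, 7 (7.78%) had an unadjusted edgeR p under 0.05, 2 higher and 5 lower in CAC, which was a smaller share than the 13.3% of all genes. The groups did not overlap for 22 of the 90 (24.4%, against 22.5% of all genes). The lowest adjusted edgeR p in the 5 lists was 0.233, so none passed. DESeq2 gave 2 of the 90, Cd40 and Saa3, an adjusted p under 0.05, against 5.8% of all genes that had an adjusted p. Without CONT replicate 1, 17 of the 90 (18.9%) had an unadjusted p under 0.05, against 15.6% of the 19459 genes tested in that fit. The median log2 fold change without CONT replicate 1 was -0.295 for the receptors, 0.16 for the adaptors and kinases, 0.15 for the other brakes and -0.006 for the inducible targets, the last with a change of sign. Without CONT replicate 3 these medians were 0.03, 0.08, 0.05 and 0.16, with a change of sign for the receptors.

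Of the ligands, 7 of 11 were tested and 0 had an unadjusted p under 0.05, with a median log2 fold change of -0.95. That median was -0.30 without CONT replicate 1. Il1b, the gene of interleukin-1β, was at 0.442, 3.43 and 2.02 CPM in CONT and 5.58, 7.05 and 5.02 CPM in CAC, all CAC libraries above (log2 fold change 1.56, SE 0.69; edgeR, unadjusted p = 0.0613), and without CONT replicate 1 its log2 fold change was 1.13 (edgeR, unadjusted p = 0.0373). Tnfsf12, which encodes TWEAK, had a log2 fold change of -1.18 that was -0.30 without CONT replicate 1. Tnf itself was at most 1.43 CPM in any library.

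Of 16 receptors, 1 was higher and 2 lower at an unadjusted p under 0.05 (6.31% and 6.95% of all genes), with a median log2 fold change of -0.08. Without CONT replicate 1, 2 were higher and 5 lower at that edgeR p, against 15.6% of all genes in either direction. The median was 0.15 without CONT replicate 2. Cd40, a receptor of B cells and other antigen-presenting cells that signals to both branches, was at 6.72, 5.69 and 4.21 CPM in CONT and 1.67, 1.84 and 1.91 CPM in CAC. The log2 fold change of Cd40 was -1.61 with an SE of 0.38 (edgeR, adjusted p = 0.233) and was -1.44 without CONT replicate 1, and DESeq2 gave an adjusted p of 0.00206. Ltbr, the lymphotoxin β receptor, which feeds the non-canonical branch, was at 111, 98.3 and 110 CPM in CONT and 82.5, 72.7 and 82.7 CPM in CAC (log2 fold change -0.43). Il1rap, the co-receptor for interleukin-1, was at 4.16, 6.86 and 5.78 CPM in CONT and 8.39, 12.2 and 14.2 CPM in CAC (log2 fold change 1.05). The groups of Cd40, Ltbr and Il1rap did not overlap.

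None of the 26 adaptors and kinases had an unadjusted p under 0.05, and their median log2 fold change was 0.04. At that edgeR p, 2 were lower and 0 higher without CONT replicate 1, and 2 were higher and 0 lower without CONT replicate 3. Traf6, an adaptor for interleukin-1 and Toll-like receptors, had a log2 fold change of 0.48 (edgeR, unadjusted p = 0.0512). Traf3, which holds the non-canonical kinase NIK at a low level, had a log2 fold change of -0.68 (edgeR, unadjusted p = 0.0518), and -0.91 without CONT replicate 1 (edgeR, unadjusted p = 8.86e-04). Of 17 other brakes and atypical IκB genes, only Pdlim2, whose product promotes breakdown of nuclear RelA, had an unadjusted p under 0.05, with a log2 fold change of -0.996 that was -0.63 without CONT replicate 1. In the fit without CONT replicate 1, 2 of the 17 were higher and 2 lower at an unadjusted edgeR p under 0.05, against 15.6% of all genes in either direction.

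Of 30 inducible NF-κB target genes, 24 were tested, 1 was higher and 2 lower at an unadjusted p under 0.05, and the median log2 fold change was 0.16. Cxcl2, a neutrophil attractant, was at 0.0884, 0.782 and 0.314 CPM in CONT and 1.14, 1.88 and 4.42 CPM in CAC, from as few as 1 read in CONT replicate 1. The acute-phase gene Saa3 was at 16.4, 61.8 and 37.3 CPM in CONT and 5.70, 12.7 and 14.3 CPM in CAC (log2 fold change -1.82, and -2.17 without CONT replicate 1). Csf1, the gene of macrophage colony-stimulating factor, had a log2 fold change of -0.71 with overlapping groups, and -0.95 without CONT replicate 1. The target list thus held members on both sides of 0, 15 above and 9 below.

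The glucocorticoid-response list was set beside Nfkbia because Nfkbia is known to respond to both inputs. It was chosen, as all lists were, with earlier results of these data known, so its counts are only a description. All 16 genes were tested and all had a log2 fold change above 0, against 45.9% of all genes tested, with a median of 1.58. Of them, 12 had an unadjusted p under 0.05 in edgeR, against 13.3% of all genes, and 0 an adjusted p under 0.05. The 4 without such an unadjusted p were Tsc22d3, Dusp1, Mt1 and Cebpb (edgeR, unadjusted p from 0.112 to 0.511), and their groups overlapped. DESeq2 gave 9 of the 16 an adjusted p under 0.05, against 5.8% of the genes that had an adjusted p. Fkbp5, which encodes a co-chaperone of the glucocorticoid receptor, was at 119, 88.1 and 135 CPM in CONT and 658, 601 and 617 CPM in CAC (log2 fold change 2.45). Ddit4, an inhibitor of mTORC1 signaling, had a log2 fold change of 2.89, Pdk4, a kinase that holds back glucose oxidation, 2.78, and Klf15, a transcription factor of fasting metabolism, 1.21. Hormone levels were not among the data, and the part of this input in the Nfkbia value was not tested.

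**Figure D4:**
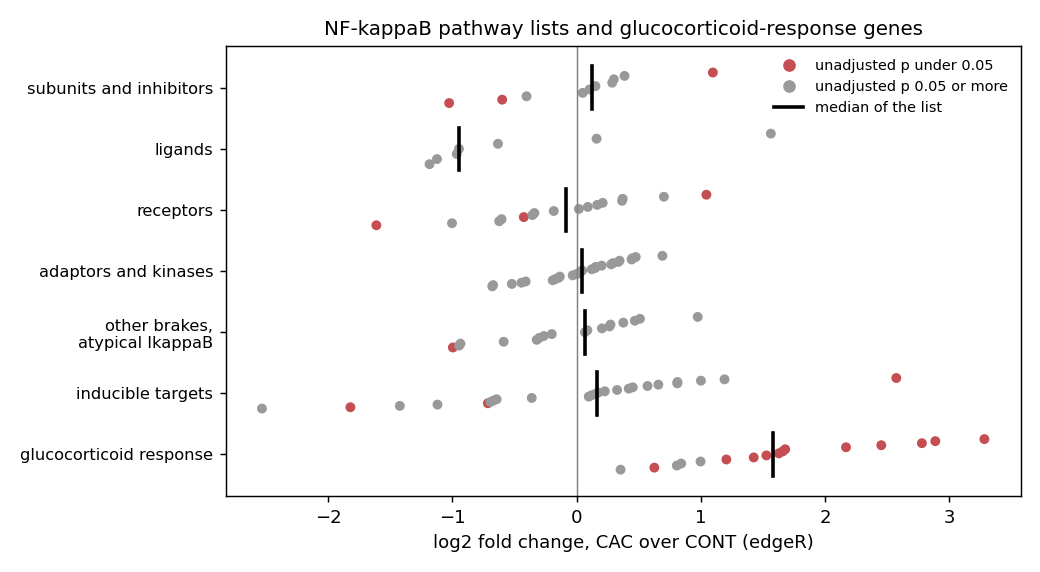
Log2 fold change of CAC over CONT (edgeR) for the 10 subunits and inhibitors and for each gene tested of the 5 pathway lists and the glucocorticoid-response list; red points had an unadjusted p under 0.05 and the black line is the median of the list. The medians of the subunits, receptors, kinases, brakes and targets lie between -0.08 and 0.16, and that of the ligands at -0.95 (-0.30 without CONT replicate 1). All 16 glucocorticoid-response genes lie above 0, against 45.9% of all genes tested.

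Markers of immune cells differed between the groups as well. Summed neutrophil markers were at 7.96 to 75.4 CPM in CONT and 168 to 1242 CPM in CAC, with CAC replicate 3 the highest. Of these markers 10 of 10 were above 0 in log2 fold change, against 45.9% of all genes tested. CAC replicate 3 was also the highest library for Nfkbia, Nfkbib, Nfkbiz and Rela. The other libraries did not keep this order. CONT replicate 1, with the lowest neutrophil sum, was the highest of CONT for Nfkbia, Nfkbib and Rela and the lowest for Nfkbiz. CAC replicate 2 had a higher neutrophil sum than CAC replicate 1 (273 against 168 CPM), with lower Nfkbia and Nfkbiz and higher Nfkbib and Rela. Summed B cell markers were at 20.6 to 45.5 CPM in CONT and 7.64 to 15.1 CPM in CAC, with 6 of the 9 tested below CONT in every CAC library and 3 of 9 with an unadjusted p under 0.05. Over all genes tested, 10.7% were below CONT in every CAC library and 6.95% were lower at an unadjusted p under 0.05 (edgeR). Pax5 held 19.5 CPM of the sum in CONT replicate 1 and at most 1.87 CPM elsewhere. Summed T cell markers were at 22.1 to 34.1 CPM in CONT and 14.3 to 18.5 CPM in CAC. Without Pax5 the B cell sums were at 19.8 to 26.0 CPM in CONT and 6.44 to 13.8 CPM in CAC, still apart. The T cell sums were apart through Cd247, and without it they overlapped, at 13.1 to 20.8 CPM in CONT and 10.1 to 14.3 CPM in CAC, with 1 of 10 T cell markers at an unadjusted p under 0.05 (edgeR). The B cell sum was lower in every CAC library, as Relb, Nfkbie and Cd40 were, although CAC replicate 3 was the lowest of CAC for that sum and the highest for Relb and Nfkbie.

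Dendritic cell markers summed to 54.8 to 65.3 CPM in CONT and 37.8 to 68.2 CPM in CAC, and Zbtb46 held 43.3 of the 68.2 CPM in CAC replicate 1. The median log2 fold change of the 8 dendritic cell markers was -0.25, and from 6 to 7 of the 8 were below 0 when 1 CONT library was left out. Of these markers 2, Xcr1 and Batf3, had an unadjusted p under 0.05 (edgeR) and lay below CONT in every CAC library. Macrophage markers summed to 872, 2365 and 2396 CPM in CONT and 1922, 1053 and 1283 CPM in CAC, so the groups overlapped through CONT replicate 1 alone. Of 12 macrophage markers 10 had a log2 fold change below 0, and 1 was lower at an unadjusted p under 0.05, against 6 without CONT replicate 1 and 0 without CONT replicate 3 (edgeR). Cd14, a co-receptor for bacterial lipopolysaccharide, went the other way, at 20.2, 35.4 and 48.5 CPM in CONT and 71.4, 69.5 and 96.4 CPM in CAC (log2 fold change 1.19; DESeq2, adjusted p = 0.0287). Fibroblast and matrix markers were at 2602 to 3614 CPM in CONT and 1611 to 2792 CPM in CAC, with 5 of 8 lower at an unadjusted p under 0.05. Dcn, the most abundant of them, went the other way, at 965, 774 and 817 CPM in CONT and 1287, 1486 and 1090 CPM in CAC. Without Dcn the sums did not overlap, at 1637 to 2797 CPM in CONT and 521 to 1505 CPM in CAC. Endothelial markers summed to 2178, 1337 and 1416 CPM in CONT and 1945, 1918 and 2048 CPM in CAC, with CONT replicate 1 again the library that made the groups overlap, and 4 of 8 were higher at an unadjusted p under 0.05 without it, against 0 with all libraries (edgeR). Mesothelial markers (116 to 201 CPM in CONT and 73.3 to 215 CPM in CAC) overlapped. At an unadjusted edgeR p under 0.05, the B cell markers lower in CAC numbered 1 without CONT replicate 1 and 2 without CONT replicate 3, the dendritic cell markers 1 and 0, and the fibroblast markers 3 and 1, while the neutrophil markers higher in CAC numbered 7 and 6. Over all genes tested, 6.31% were higher and 6.95% lower at that p with all libraries. In either direction the share was 15.6% without CONT replicate 1 and 9.25% without CONT replicate 3. No marker of the 10 cell type lists was at 0 in all 6 libraries. The part of these cell types in the values of Nfkbia, Nfkbie and Relb was not tested.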

How the data were processed

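Gene read counts, whole numbers per gene and library, and FPKM values were deposited by the authors. The submitters' processing notes name HISAT2 2.0.5 and featureCounts 1.5.0-p3, and the deposited coordinates equal GENCODE M21 (GRCm38) for all of the 10 genes but Nfkb2. The authors' FPKM totals followed a TMM-like library size. The 10 genes and all gene lists were chosen with earlier results of these data known. Counts were tested with edgeR 4.0.16 in R 4.3.3 (robust quasi-likelihood, TMM, filterByExpr, condition only, Benjamini-Hochberg over 17296 genes). The procedure was also run on simulated data, with planted changes larger than those of the 10 genes, so that run does not cover changes of their size. CPM use the TMM-scaled library size. Intervals are at 95% from the fit's degrees of freedom. DESeq2 1.42.0, limma 3.58.1 (voom, and FPKM with a pseudocount of 1 or 0.1), other scalings, filters, a replicate block and leaving out each library were alternatives, 19 for each result. Of each pathway list, genes with an unadjusted p under 0.05 were named (at most 4, or the 2 smallest p where none had one), and of a cell type list at most its most abundant marker. Other genes with values (Tnf, Insig1, Lep, Pnpla2, Xcr1, Batf3, Cd14, Tsc22d3, Dusp1, Mt1, Cebpb) were singled out after their values were seen. The κB consensus was searched in RefSeq promoters as a description.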

Additional observations from a re-analysis of the deposited data

How the results depend on the processing

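With 3 libraries per group the edgeR test gave 0 genes an adjusted p under 0.05, and 0 again in all 6 fits without 1 library. The count was 396 with edgeR's likelihood ratio test, 929 with DESeq2, 956 with voom and sample weights, 7 with limma on log2(FPKM + 1) and 8 on log2(FPKM + 0.1). Replicate numbers are shared by the groups, and no sample label gives a pairing. Deviations from the group means had an r of 0.31, -0.15 and -0.22 for same-numbered libraries and of -0.44 to 0.47 for the others. With 3 libraries per group such values cannot decide whether the numbers pair libraries. In edgeR with the replicate block 1 gene had an adjusted p under 0.05. An unadjusted p under 0.05 was found there for 2 of the 10 genes and for 1992 of all 17296 genes. Genes with an unadjusted p under 0.05 numbered 2294, 4920 with voom, and 1384 to 3032 when 1 library was left out, the lowest values being without CAC replicate 2 (1384) or 3 (1491). Of the 10 genes, 3 had an unadjusted p under 0.05, and 1 to 4 when 1 library was left out, with 1 left without CONT replicate 2 or 3 or CAC replicate 1 or 2. The share over all genes was 13.3% with all libraries and 7.2% to 15.6% over these 6 fits. It was 7.2% to 11.7% in the fits with 1 of the 10 left. Groups did not overlap for 3 of the 10, and for 3 to 6 when 1 library was left out, the 6 being without CAC replicate 1, where 33.4% of all genes did not overlap (26.6% to 37.7% over these 6 fits). Over all 19 alternatives the log2 fold change of Nfkbia stayed between 0.94 and 1.30 with an unadjusted p under 0.05 in each, and its adjusted p ranged from 0.0158 (DESeq2) to 0.684 (edgeR without CAC replicate 2). Nfkbie stayed between -1.31 and -0.71, with an unadjusted p under 0.05 in 15 of 19 and an adjusted p from 0.0397 (voom with sample weights) to 0.705. Relb stayed between -0.83 and -0.38, with an unadjusted p under 0.05 in 10 of 19 and an adjusted p from 0.0898 to 0.744. The sign was not stable for Rela (-0.075 to 0.17 when 1 library was left out), for Tnfaip3 (-0.19 to 0.38, and -0.52 with voom) or for Nfkbiz (-0.13 with voom). The cause of these differences was not tested.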
